A study of Mus musculus with 36 samples.

Results

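The genes Cbx1, Cbx3 and Cbx5, which encode the HP1 proteins HP1β, HP1γ and HP1α, were followed by RNA-seq through splenic CD4+ T cells of 2 mutant mouse lines. They were taken by gene name, and all 3 were found among the 56748 genes of the count table. In the HP1a line a floxed Cbx5 allele had been excised through the germ line with a CMV-cre transgene, so that HP1a KO mice lacked it in every tissue and HP1a WT mice carried the intact gene. In the HP1g line HP1g KO mice were homozygous for a floxed Cbx3 allele and carried Cd4-cre, which acts in T cells from thymic development on, and their HP1g WT controls were homozygous for the same floxed allele without Cre. Both lines were kept on a mixed background of C57BL/6 and another strain. Mutants and controls were sex-matched littermates 6 to 12 weeks old, and the paper states that males were used for sequencing. Naive cells were purified from the spleen of these mice. Tconv were conventional CD4+ T cells that had been injected as naive cells into irradiated wild-type hosts with bone marrow of syngeneic and of semi-allogeneic origin, and were sorted later by Vβ6, a T cell receptor chain of cells that react to the donor. Tconv with Treg came from hosts that had also received expanded wild-type regulatory T cells (Treg), which were sorted away by a surface marker. Each of the 12 groups, set by line (2), genotype (2) and condition (3), had 3 libraries. HP1g KO Tconv with Treg replicate 3, which the study had excluded for its read quality, was left out, and 35 libraries remained. Nothing in the labels says whether libraries of a group came from separate animals, and p-values measure the spread between these libraries, which may be partly technical.

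HP1 proteins read a silencing mark. Their chromodomain binds histone H3 methylated at lysine 9 (H3K9), and their chromoshadow domain pairs them with each other and with partners such as TRIM28, so that methylated chromatin is held in a compact, silent state. Writers of the mark include SUV39H1, SETDB1 and EHMT2, and in helper T cells H3K9 methylation takes part in keeping the genes of alternative lineages silent.

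The paralogs share their protein domains but are far enough apart in coding sequence to be counted separately. This is shown by 90 bases of coding sequence from each, all from the last 2 coding exons of the canonical transcript and the part that encodes the chromoshadow domain. Capitals mark the 29 positions at which the paralogs are not all alike. The processed pseudogene Cbx3-ps6 is given below them in small letters because it matched Cbx3 at all 90 positions.
Cbx1: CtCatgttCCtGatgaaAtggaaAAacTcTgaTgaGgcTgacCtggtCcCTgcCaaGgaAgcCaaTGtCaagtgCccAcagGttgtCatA
Cbx3: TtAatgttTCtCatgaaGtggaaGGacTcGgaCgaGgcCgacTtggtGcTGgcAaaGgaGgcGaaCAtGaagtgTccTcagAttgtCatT
Cbx5: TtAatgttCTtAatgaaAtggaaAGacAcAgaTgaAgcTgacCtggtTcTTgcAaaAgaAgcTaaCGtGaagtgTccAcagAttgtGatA
Cbx3-ps6: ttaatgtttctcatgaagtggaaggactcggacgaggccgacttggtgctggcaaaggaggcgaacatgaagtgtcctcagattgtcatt
In GRCm39 the Cbx1 window (plus strand) lies at chr11:96693629-96693648 in exon 4 and chr11:96697442-96697511 in exon 5. The Cbx3 window (plus strand) lies at chr6:51458779-51458798 in exon 5 and chr6:51459460-51459529 in exon 6. The Cbx5 window (minus strand) lies at chr15:103109228-103109247 in exon 4 and chr15:103108149-103108218 in exon 5. Cbx3-ps6 lies on the minus strand at chr14:74192440-74192991. The window was the one in which Cbx1 and Cbx3 together differed least from Cbx5, so that pairs with Cbx5 were favoured. Cbx1 and Cbx5 shared 80.0% of the 90 bases, Cbx3 and Cbx5 77.8%, and Cbx1 and Cbx3 73.3%. No stretch shared by a pair of paralogs was longer than 12 bases.

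Over the canonical transcripts the same held. None of the overlapping 31-base words of any paralog occurred in another paralog. However, 71.58% of the 2294 words of Cbx3 occurred in some other annotated gene, 33 genes in all, against 2.91% for Cbx1 and 1.37% for Cbx5. The largest overlaps of Cbx3 were with its neighbour Hnrnpa2b1 (26.5% of its words) and the predicted genes Gm63587 (25.89%) and Gm49164 (23.84%), followed by the pseudogenes Cbx3-ps6 (21.4%) and Cbx3-ps7 (21.01%). The estimated count of Cbx3 was a whole number in 0 of 35 libraries, that of Cbx1 in 26 and that of Cbx5 in 32 (within 0.001), since reads that match several genes are divided between them. Of 8 Cbx3 pseudogenes in the table, Cbx3-ps6 reached 0.711 CPM (counts scaled to the library total) and Cbx3-ps7 0.647 CPM in their highest library, and the others stayed at or below 0.0614 CPM. Counts of Cbx3 are therefore less certain than those of the other paralogs. The words were matched on either strand in another annotation release than the one behind the counts. The overlap that the counts met can thus differ from these percentages.

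Library totals ranged from 37029519 to 63042245 estimated counts (median 46844690). Cbx1 had 1444 to 4214 counts per library, Cbx3 2879 to 9576 and Cbx5 398 to 2498, and counting error alone gives a coefficient of variation of 5.01% at the lowest Cbx5 count. All 3 paralogs passed the filter on low counts in each of the 19 comparisons made. In every group the mean of each of 7 CD4 T cell markers was at or above 1 CPM. Markers of other cells were found as well. The sum of 10 myeloid markers was 6.12 to 13.0 CPM in naive libraries and 6.74 to 601 CPM in grafted ones, and that of 6 erythroid markers was 9.88 to 179 CPM and 1.796 to 6104 CPM. As these are bulk samples, fewer cells of a type and less RNA per cell cannot be told apart.

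Cbx3 gave the most transcript per length, Cbx1 came next and Cbx5 was the lowest. Levels are CPM scaled by edgeR's trimmed mean of M values (TMM), and for a comparison between genes they were divided by the length of all annotated exons (6343 bases for Cbx1, 6355 for Cbx3 and 10334 for Cbx5). On this per-length scale the order Cbx3, Cbx1, Cbx5 held in 35 of 35 libraries. HP1a WT naive cells had 22.1 ± 0.648 CPM per kb of Cbx3, 7.22 ± 0.282 of Cbx1 and 2.16 ± 0.313 of Cbx5 (SD, n = 3). This gave Cbx3 70.2% ± 0.616, Cbx1 22.9% ± 0.495 and Cbx5 6.86% ± 1.10 of the sum of the paralogs. These SDs do not cover the choice of length. By the longest coding transcript the shares were 72.4%, 24.6% and 2.98%, and by the canonical transcript 61.7%, 35.9% and 2.41%. Dividing by the longest coding transcript kept the order in 35 of 35 libraries. Dividing by the canonical transcript, an alternative chosen after the values were seen, kept it in 28 of 35. In the others, all of them HP1g KO libraries in which Cbx3 was targeted, Cbx1 was above Cbx3.

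The balance of the paralogs differed most in HP1g KO cells. Cbx3 was 53.6% ± 3.15 of the per-length sum in HP1g KO naive cells, 50.1% ± 6.25 in HP1g KO Tconv and 48.6% ± 1.45 (n = 2) in HP1g KO Tconv with Treg, against 61.8% to 65.0% in the 3 HP1g WT groups. The sum itself was 26.4, 47.5 and 27.99 CPM per kb in the HP1g WT naive libraries and 21.6, 22.3 and 19.2 in the HP1g KO naive libraries. The WT mean of 33.97 ± 11.8 (SD, n = 3) was 27.2 without replicate 2 (left out after the values were seen), against 21.1 in KO. In the HP1a line the sums of WT and KO naive cells were 31.5 and 30.2 CPM per kb, and Cbx5 was a small part of both. By the canonical transcript Cbx3 was 43.6%, 43.9% and 40.25% in these HP1g KO groups, against 54.6% to 56.0% in HP1g WT. By the longest coding transcript it was 55.8%, 55.1% and 52.0%, against 65.7% to 66.9%. Shares and sums thus depend on the length used. These shares are a description and were not tested.

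**Figure D1:**
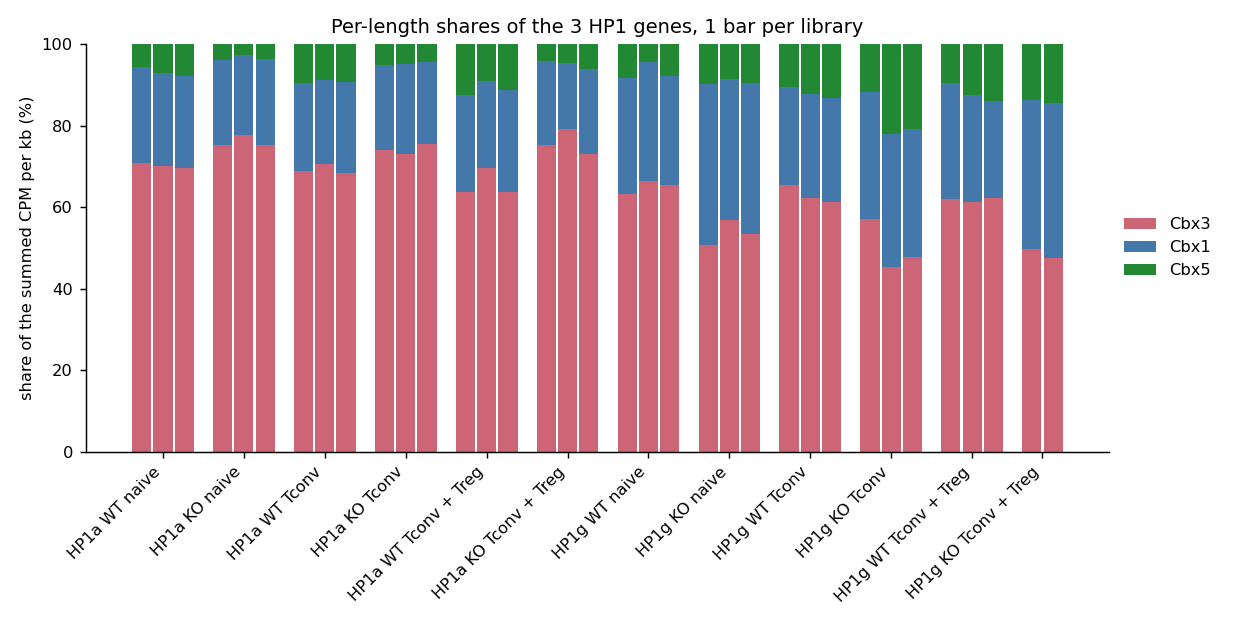
Share of each HP1 gene in the summed CPM per kb of exon length (y axis, percent) in each of the 35 libraries, 1 stacked bar per library, grouped by line, genotype and condition (x axis). Cbx3 took 45.2% to 79.2% of the sum, Cbx1 16.1% to 39.5% and Cbx5 2.78% to 22.1%.

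Across the 12 groups, the ratio of the highest to the lowest group mean was 4.38 for Cbx5, 2.88 for Cbx3 and 1.69 for Cbx1. For Cbx5 and Cbx3 the lowest groups were those in which the gene itself was targeted, which widens these ratios. Among WT groups alone, means were 22.3 to 47.8 CPM for Cbx5, 87.9 to 174 CPM for Cbx3 and 36.9 to 62.1 CPM for Cbx1. Cbx5 means ran from 10.9 CPM in HP1a KO naive cells to 47.8 CPM in HP1a WT Tconv with Treg. Between neighbours in this order the libraries overlapped in 9 of 11 steps. The exceptions were HP1a WT Tconv (28.2 CPM) over HP1g WT naive cells (22.5 CPM), and HP1a KO Tconv (15.3 CPM) over HP1a KO naive cells. Cbx3 means ran from 60.2 CPM in HP1g KO Tconv with Treg to 174 CPM in HP1a WT Tconv with Treg, again with overlap in 9 of 11 steps. The exceptions were HP1a WT Tconv (131 CPM), the lowest group of the HP1a line, over HP1g WT Tconv (93.97 CPM), and HP1g KO Tconv (69.1 CPM) over HP1g KO Tconv with Treg. Cbx1 means stayed between 36.9 and 62.1 CPM, and its libraries overlapped in all 11 steps. The lines were different stocks with different controls, and line and batch cannot be told apart.

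**Figure D2:**
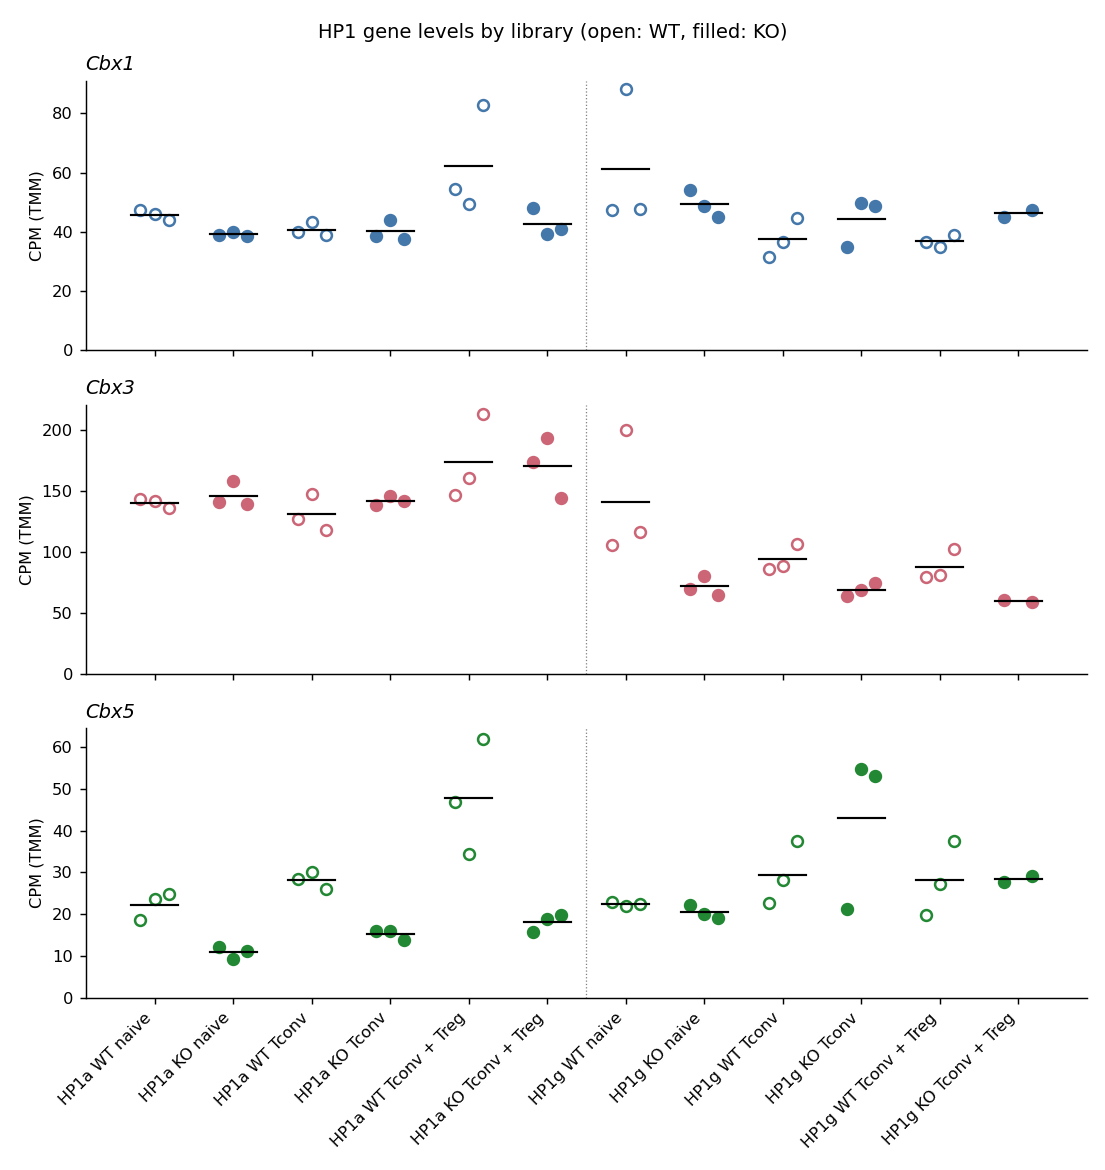
TMM-scaled CPM (y axis, linear from 0) of Cbx1, Cbx3 and Cbx5 in each of the 35 libraries by group (x axis), with open points for WT, filled points for KO and a bar at the group mean. The targeted gene, Cbx5 left of the dotted line and Cbx3 right of it, was lower in every KO library than in every WT library of its condition.

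Did deletion lower the targeted transcript, and did the other paralogs rise in its place? The targeted gene was at 37.9% to 54.1% of the WT mean in HP1a KO cells and at 51.0% to 73.6% in HP1g KO cells, without overlap of the libraries in 6 of 6 comparisons. The quasi-likelihood test of edgeR was applied, with p-values adjusted over all genes tested by the Benjamini-Hochberg method, and 1 of these 6 differences passed an adjusted p of 0.05. Of the 12 values of the other paralogs 0 passed that threshold, 3 had an unadjusted p under 0.05 and 0 were called by DESeq2. Over all genes edgeR called 0% to 0.123% in these comparisons, and 1.87% to 12.1% had an unadjusted p under 0.05. DESeq2 called 18 to 937 genes in them. The share of all genes whose libraries did not overlap, which is the background for the counts just given, was 6.7% for naive, 15% for Tconv and 21.8% for Tconv with Treg in the HP1a line, and 18.7%, 13.6% and 29.3% in the HP1g line. The counts are per gene, so that reads from exons outside the deleted part would be counted. They do not measure protein. By western blot of naive cells the paper found HP1α absent in HP1a KO and HP1γ almost fully lost in HP1g KO. It reported no compensating rise of the other HP1 proteins.

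Cbx5 in naive cells was 18.6, 23.5 and 24.7 CPM in the HP1a WT libraries and 12.2, 9.25 and 11.2 CPM in the HP1a KO libraries. Every KO library was below every WT library. The log2 fold change was -1.03 ± 0.172 (SE), a fold of 0.489 with a 95% interval of 0.369 to 0.648. In edgeR's model over all genes the unadjusted p was 0.000553 and the adjusted p 0.991. In this comparison 0 of 15549 genes (0%) were called, 291 had an unadjusted p under 0.05, and DESeq2 called 18. The naive libraries of equal number deviated together, and with the replicate number as a block the adjusted p of Cbx5 was 0.0139. DESeq2 gave 9.22e-05, and over 11 alternatives the adjusted p ran from 9.22e-05 to 1.0.

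In Tconv, Cbx5 was 28.4, 30.2 and 26.1 CPM in HP1a WT and 15.9, 16.1 and 13.9 CPM in HP1a KO. The groups lay well apart. Cbx5 fell by 0.89 ± 0.107 on the log2 scale (fold 0.541, 95% interval 0.456 to 0.642, adjusted p = 0.0331, edgeR), 1 of 19 genes called among 15521 (0.122%). The adjusted p was 0.0591 to 0.281 when any 1 of the 6 libraries was left out, 0.166 with all libraries of the line in 1 fit, and 6.73e-09 with DESeq2 (range 6.73e-09 to 0.281 over 11 alternatives). Myeloid markers summed to 6.74 to 7.87 CPM in WT, with Ltf and Chil3 at 0, and to 13.0 to 183 CPM in KO, with none at 0. All 7 tested were higher in KO and 0 were called. Erythroid markers summed to 1.796 to 3.44 CPM in WT and 26.4 to 770.5 CPM in KO. The part of either in the change of Cbx5 was not tested.

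In Tconv with Treg, Cbx5 was 47.0, 34.5 and 61.9 CPM in HP1a WT and 15.7, 18.8 and 19.7 CPM in HP1a KO. The WT libraries were spread and all above the KO libraries. The log2 fold change was -1.42 ± 0.251 (fold 0.373, 95% interval 0.249 to 0.561), and the adjusted p was 0.086 with edgeR, under which 20 of 16256 genes (0.123%) were called. DESeq2 gave 4.47e-05, and over 11 alternatives the adjusted p ran from 4.47e-05 to 0.39. Myeloid markers moved with genotype here. The 10 markers summed to 25.1 to 65.1 CPM in WT and 224 to 601 CPM in KO, with 9 of 9 tested higher in KO, 2 of them called, and none of the 10 at 0 in either group. The 6 erythroid markers summed to 2.66 to 49.97 CPM in WT and 112 to 703 CPM in KO. Treg markers went the other way, with sums of 938 to 1063 CPM in WT and 385 to 617 CPM in KO, a median log2 fold change of -0.83 over the 6 markers, 0 called with edgeR and 3 with DESeq2. Over all genes DESeq2 called 937 in this comparison. All 15 proliferation genes had values below 0 (median -0.41, 0 called), and their sums of 1551 to 2346 CPM in WT and 1193 to 1816 CPM in KO overlapped. The part of these 4 lists in the differences of Cbx5 and Cbx1 was not tested.

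The remaining paralogs of the HP1a line gave no higher transcript level in KO cells that passed the test. Cbx3, the most abundant paralog, was 144, 142 and 136 CPM in HP1a WT naive cells and 141, 159 and 139 CPM in HP1a KO naive cells. In Tconv it was 127, 148 and 118 CPM in WT and 138, 146 and 142 CPM in KO. Those with Treg had 147, 161 and 213 CPM in WT and 174, 194 and 144 CPM in KO. Its fold was 1.04 in naive cells (95% interval 0.916 to 1.17), 1.09 in Tconv (0.946 to 1.25) and 0.971 in Tconv with Treg (0.699 to 1.35). The libraries overlapped in all 3 conditions, and an increase of Cbx3 above 1.35-fold lay outside each interval.

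Cbx1 had a lower mean in HP1a KO than in HP1a WT cells in all 3 conditions. In naive cells it was 47.5, 45.9 and 44.0 CPM in WT and 38.8, 40.0 and 38.6 CPM in KO. These libraries did not overlap, and the log2 fold change was -0.23 ± 0.0774 with an adjusted p of 1.0 (edgeR, unadjusted p = 0.0205). In Tconv the levels were 40.7 ± 2.33 CPM in WT and 40.1 ± 3.48 CPM in KO (fold 0.986, 95% interval 0.853 to 1.14). Among Tconv with Treg, Cbx1 was 54.3, 49.3 and 82.9 CPM in WT and 48.0, 39.3 and 41.0 CPM in KO, again without overlap. The log2 fold change of -0.56 ± 0.233 had an adjusted p of 0.396, and without WT replicate 3, the library at 82.9 CPM, it was -0.27. This library also had the highest Cbx3 (213 CPM) and Cbx5 (61.9 CPM) of its group. With all libraries of the line in 1 fit the adjusted p of Cbx1 was 0.0443, the only one of 11 alternatives that passed.

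**Figure D3:**
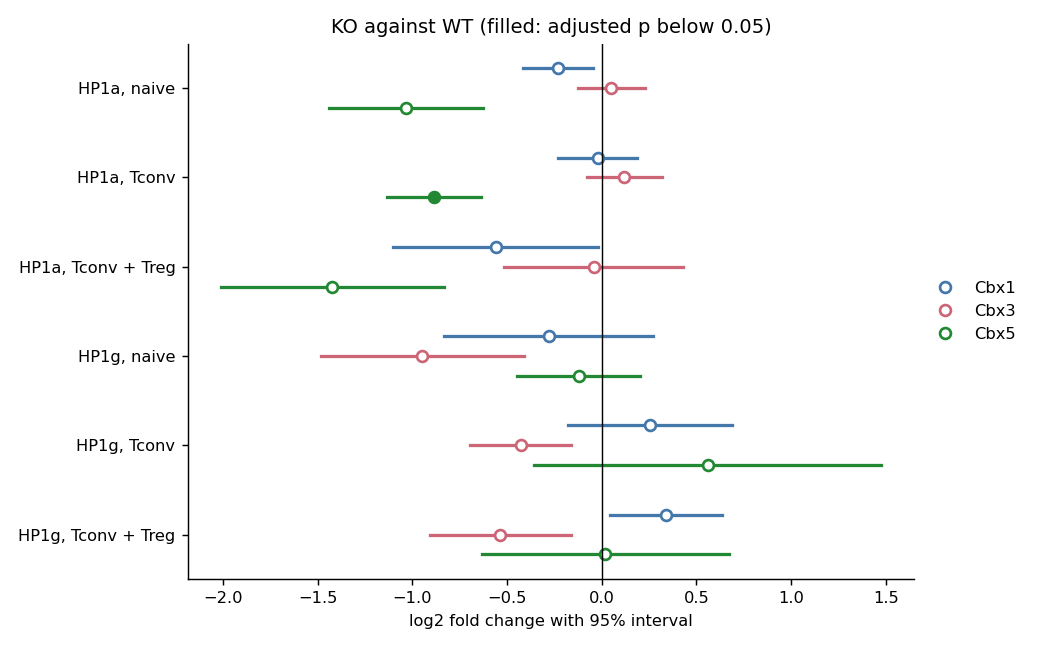
Log2 fold change of KO against WT (x axis) with its 95% interval for Cbx1, Cbx3 and Cbx5 in the 2 lines and 3 conditions (y axis), filled where the adjusted p was below 0.05. Cbx5 in HP1a Tconv is the single filled point. Intervals of the targeted genes exclude 0 in all 6 comparisons.

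In the HP1g line, Cbx3 in naive cells was 106, 200 and 116 CPM in WT and 69.6, 80.8 and 65.0 CPM in KO. HP1g WT naive replicate 2 stood apart, also for Cbx1 and over the genes that passed the filter. The mean chi-square per gene measures how far the counts of 2 libraries differ beyond depth. It was 271.5 and 254.4 between this library and replicates 1 and 3, and 11.05 between replicates 1 and 3. The log2 fold change was -0.95 ± 0.231 (fold 0.519, 95% interval 0.358 to 0.752) with an adjusted p of 0.63 (edgeR, 1 of 14939 genes called, 0.00669%). Without that library it was -0.65 with an adjusted p of 0.011, within a range of 0.011 to 0.922 over 11 alternatives. Erythroid markers summed to 9.88 to 50.3 CPM in WT and 64.5 to 78.7 CPM in KO (0 of 6 called), and their part was not tested.

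Cbx3 in Tconv was 86.4, 88.5 and 107.0 CPM in HP1g WT and 63.9, 68.9 and 74.7 CPM in HP1g KO. The log2 fold change was -0.43 ± 0.113 (fold 0.744, 95% interval 0.618 to 0.895, adjusted p = 0.32, edgeR, 7 of 16015 genes called, 0.0437%). In Tconv with Treg it was 79.5, 81.6 and 103 CPM in WT and 61.0 and 59.4 CPM in the 2 KO libraries. There the log2 fold change was -0.53 ± 0.153 (fold 0.69, 95% interval 0.534 to 0.892) with an adjusted p of 0.26 (edgeR). Treg markers summed to 513 to 626 CPM in these WT libraries and 723 to 1404 CPM in KO (median log2 fold change 0.98, 0 of 6 called with edgeR and 2 with DESeq2), and their part in the difference of Cbx3 was not tested. In that comparison 0 of 17177 genes (0%) were called, with 2028 under an unadjusted p of 0.05 and 819 called by DESeq2. The KO mean was 51.0%, 73.6% and 68.5% of WT in naive cells, Tconv and Tconv with Treg, and the interaction of genotype and activation for Cbx3 (0.59 ± 0.301 on the log2 scale) had an adjusted p of 0.63.

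Cbx1 and Cbx5 had no called change in HP1g KO cells. Cbx1 was 47.4, 88.1 and 47.7 CPM in HP1g WT naive cells and 54.2, 48.7 and 45.04 CPM in KO, a fold of 0.824 (95% interval 0.562 to 1.21) whose log2 value became 0.03 without the WT library at 88.1 CPM. In Tconv it was 31.6, 36.5 and 44.5 CPM in WT and 34.8, 49.6 and 48.7 CPM in KO (fold 1.19, 95% interval 0.885 to 1.61). With Treg the Tconv libraries did not overlap, at 36.6, 34.8 and 39.1 CPM in WT and 44.97 and 47.5 CPM in KO, a log2 fold change of 0.34 ± 0.123 (fold 1.27, 95% interval 1.03 to 1.55) with an adjusted p of 0.358 (edgeR). With the left-out KO library included this value became -0.21, as Cbx1 was 2.23 CPM there.

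Among HP1g cells the means of Cbx5 lay furthest apart between genotypes in Tconv. Naive cells had 23.0, 22.0 and 22.4 CPM in WT and 22.1, 20.1 and 19.1 CPM in KO (fold 0.919, 95% interval 0.734 to 1.15). In Tconv, WT had 22.7, 28.2 and 37.6 CPM, whereas KO had 21.3, 54.8 and 53.1 CPM. HP1g KO Tconv replicate 1 was thus within the WT range and the other 2 libraries above it. The log2 fold change was 0.56 ± 0.38 with an adjusted p of 0.789 (edgeR), and 0.86 with an adjusted p of 0.165 without replicate 1 (0.165 to 1.0 over 11 alternatives). The sum of 15 proliferation genes moved along with it, at 964 CPM in replicate 1 and 3493 and 3175 CPM in the other 2 KO libraries, against 1211 to 2244 CPM in WT. The part of this in the difference of Cbx5 was not tested. In Tconv with Treg, Cbx5 was 19.9, 27.3 and 37.5 CPM in WT and 27.6 and 29.2 CPM in KO (fold 1.01, 95% interval 0.646 to 1.59).

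**Figure D4:**
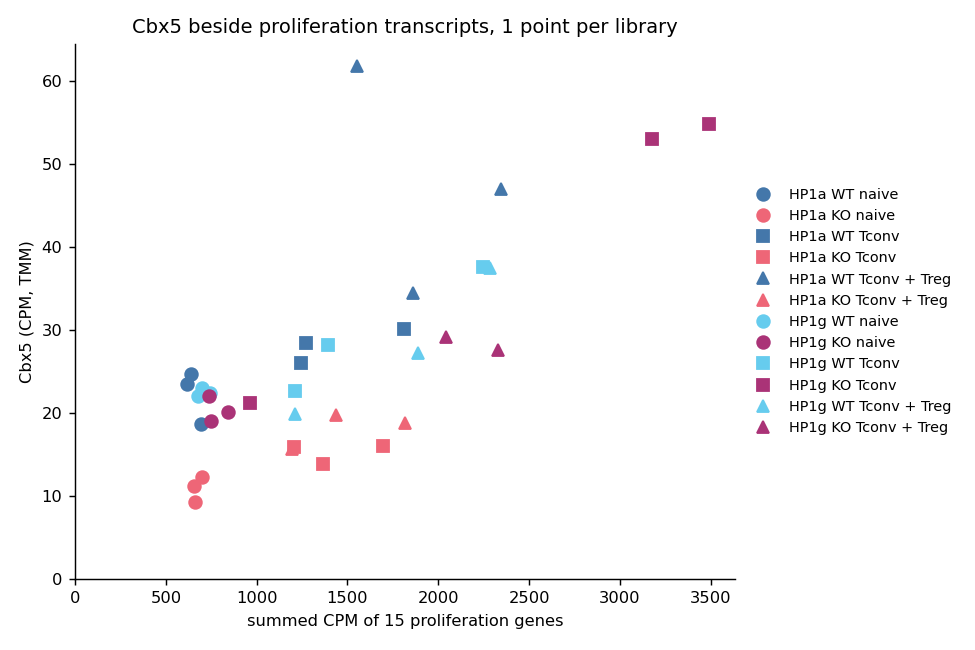
Cbx5 in TMM-scaled CPM (y axis) against the summed CPM of 15 proliferation genes (x axis) in the 35 libraries, coloured by line and genotype with a symbol for each condition. HP1g KO Tconv lies at 21.3 CPM of Cbx5 beside 964 CPM of proliferation transcripts in 1 library, and at 53.1 and 54.8 CPM beside 3175 and 3493 CPM in the other 2. HP1a WT Tconv with Treg replicate 3, the highest point at 61.9 CPM, had 1551 CPM.

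Between Tconv and naive cells Cbx5 passed the test in HP1a KO, where it was the targeted gene, and in HP1g KO, with 40.6% and 41.1% of all genes called there. Of 11 alternatives 3 kept this call in HP1a KO and 4 in HP1g KO. Tconv that had met alloantigen in the host were compared with naive cells of the same line and genotype. These differ also in transfer and in the sort for Vβ6, which cannot be told apart from activation. Of 9 activated T cell genes 9 were called higher in each of the 4 comparisons, of 7 naive T cell genes 6 were called lower in each, and of 15 proliferation genes 10 to 12 were called higher. Mki67, a marker of dividing cells, rose from 1.44 ± 0.443 to 74.9 ± 21.4 CPM in HP1a WT cells (adjusted p = 4.58e-06, edgeR), and Ccr7, a homing receptor of naive cells, fell by 4.12 on the log2 scale (adjusted p = 2.05e-06, edgeR).

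The mean of Cbx5 was higher in Tconv than in naive cells in all 4 comparisons, and the difference passed the test in HP1a KO and HP1g KO. In HP1a KO cells Cbx5 was the targeted gene. Its remaining counts there do not measure HP1α, which the paper found absent from naive HP1a KO cells. Cbx5 rose there from 10.9 ± 1.52 to 15.3 ± 1.22 CPM (SD, n = 3), by 0.50 ± 0.159 on the log2 scale (adjusted p = 0.0402, edgeR, 40.6% of 15773 genes called). In HP1g KO cells it rose from 20.4 ± 1.54 to 43.0 ± 18.9 CPM, by 1.10 ± 0.343 (adjusted p = 0.0404, edgeR, 41.1% of 15912 genes called). Without HP1g KO Tconv replicate 1 this was 1.42 with an adjusted p of 1.11e-07 (range 1.11e-07 to 0.159 over 11 alternatives), and without any other library of the 6 it did not pass. In HP1a KO cells the call held without 1 of the 6 libraries, naive replicate 1, and was lost without each of the others (0.0142 to 0.146 over 11 alternatives). In HP1a KO cells 5 of 9 myeloid markers tested were called higher and 1, Itgam, lower (sums of 11.5 to 13.0 CPM in naive cells and 13.0 to 183 CPM in Tconv), with 0 of 6 erythroid markers called. In HP1g KO cells 7 of 8 myeloid markers were called higher (sums of 9.62 to 11.98 and 39.8 to 119 CPM), and 5 of 6 erythroid markers (64.5 to 78.7 and 159 to 3327 CPM). Of 6 Treg markers 4 were called higher in HP1a KO, and 5 higher and 1 lower in HP1g KO. The part of these lists in the rise of Cbx5 was not tested.

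In HP1a WT cells Cbx5 went from 22.3 ± 3.23 to 28.2 ± 2.06 CPM, a log2 fold change of 0.35 ± 0.139 with an adjusted p of 0.0708 (edgeR, 45.7% of 16027 genes called). In HP1g WT cells it went from 22.5 ± 0.516 to 29.5 ± 7.53 CPM, a log2 fold change of 0.39 ± 0.208 with an adjusted p of 0.193 (edgeR, 31.4% of 15812 genes called). With 31.4% to 45.7% of all genes called, a call in this comparison is common, and 52.1% to 57.9% of genes had libraries that did not overlap (57.9% in HP1a WT, 54.9% in HP1a KO, 52.1% in HP1g WT and 53.8% in HP1g KO). Cbx5 libraries did not overlap in HP1a WT and HP1a KO, and did in both genotypes of the HP1g line.

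Of the 8 values of Cbx1 and Cbx3, 0 passed the test with edgeR and 0 with DESeq2, and 1, Cbx1 in HP1g WT, had an unadjusted p under 0.05. Over all genes DESeq2 called 6080 to 7919 in these comparisons. In the HP1a line their folds were close to 1. Cbx1 was at 0.895 (95% interval 0.771 to 1.04) and Cbx3 at 0.937 (0.801 to 1.09) in WT, and at 1.04 (0.895 to 1.202) and 0.983 (0.875 to 1.10) in KO. In HP1g KO they were at 0.914 (0.719 to 1.16) and 0.98 (0.829 to 1.16). Only HP1g WT gave larger values, -0.70 ± 0.276 for Cbx1 (adjusted p = 0.0893, edgeR) and -0.59 ± 0.258 for Cbx3 (adjusted p = 0.122, edgeR) on the log2 scale. These were -0.34 and -0.24 without HP1g WT naive replicate 2.

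The change of Cbx5 was not shown to depend on genotype. The interaction of genotype and activation was 0.14 ± 0.202 on the log2 scale in the HP1a line (adjusted p = 1.0, edgeR, 1 of 17038 genes called, 0.00587%) and 0.74 ± 0.414 in the HP1g line (adjusted p = 0.631, edgeR, 4 of 17024 called, 0.0235%). Its 95% intervals ran from -0.30 to 0.58 and from -0.16 to 1.63. For Cbx1 it was 0.20 ± 0.117 and 0.60 ± 0.345, and for Cbx3 0.06 ± 0.118 and 0.59 ± 0.301.

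**Figure D5:**
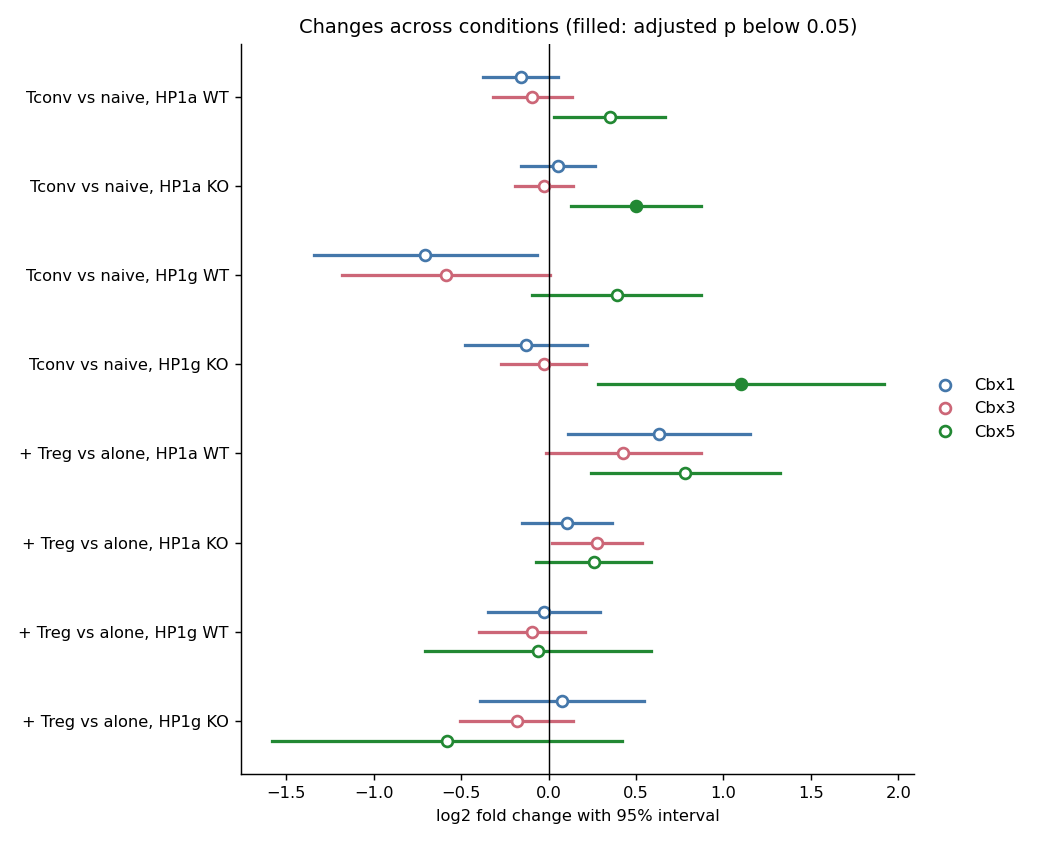
Log2 fold change (x axis) with its 95% interval for Cbx1, Cbx3 and Cbx5 between Tconv and naive cells (upper 4 groups) and between Tconv with Treg and Tconv (lower 4 groups), for each line and genotype (y axis), filled where the adjusted p was below 0.05. Cbx5 in HP1a KO Tconv, where it was the targeted gene, and in HP1g KO Tconv are the filled points.

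Did Treg alter the paralogs in the cells they act on? Of the 12 values 0 passed the test with edgeR, 3 had an unadjusted p under 0.05 and 1 was called by DESeq2. Over all genes edgeR called 7.54% in HP1a WT, 0.756% in HP1a KO, 0.0126% in HP1g WT and 0% in HP1g KO, and 22.5%, 15.8%, 6.89% and 7.62% had an unadjusted p under 0.05. In the same order DESeq2 called 2529, 1028, 82 and 310 genes, where edgeR tested 15627, 16133, 15903 and 16991. Each paralog had its highest group mean in HP1a WT Tconv with Treg, where libraries overlapped those of the next group. Cbx1 was at 62.1 CPM against 61.1 CPM in HP1g WT naive cells. Cbx3 was at 174 CPM against 171 CPM in HP1a KO Tconv with Treg. In HP1a WT Tconv with Treg, Cbx5 was 47.0, 34.5 and 61.9 CPM against 28.4, 30.2 and 26.1 CPM without Treg, with no overlap. The log2 fold change of Cbx5 was 0.78 ± 0.231 (fold 1.72, 95% interval 1.18 to 2.50). Its adjusted p was 0.0936 with edgeR, under which 1178 of 15627 genes (7.54%) were called, and 0.0282 with DESeq2. On the log2 scale the fold change of Cbx1 was 0.63 ± 0.222 and that of Cbx3 0.43 ± 0.191, with adjusted p-values of 0.149 and 0.237 in edgeR. Of all genes tested 34.5% had libraries that did not overlap, and so had Cbx1 and Cbx5, but not Cbx3.

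These values rest in part on HP1a WT Tconv with Treg replicate 3, which stood apart over many genes. Its mean chi-square per gene was 278.8 against replicate 1 and 304.7 against replicate 2, with 45.75 between replicates 1 and 2. Without replicate 3 the log2 fold changes were 0.53 for Cbx5 (adjusted p = 0.0631, edgeR), 0.35 for Cbx1 and 0.23 for Cbx3. Without replicate 2, the lowest for Cbx5, the value of Cbx5 was 0.96 with an adjusted p of 0.0354 (edgeR). Over 11 alternatives the adjusted p of Cbx5 ran from 0.0109 to 0.33. With all libraries of the line in 1 fit all 3 paralogs passed, Cbx5 at 0.0109, Cbx1 at 0.0123 and Cbx3 at 0.0466. Treg markers also differed: 3 of 6 were called higher, and their sum was 938 to 1063 CPM with Treg against 416 to 450 CPM without. By the paper, Tconv exposed to Treg can themselves turn into Foxp3+ cells or into unresponsive cells that carry CD73. The list holds Foxp3 and Nt5e, the gene of CD73, so such cells and carried-over Treg cannot be told apart by it. Of 6 myeloid markers tested 3 were called higher, with sums of 25.1 to 65.1 and 6.74 to 7.87 CPM. The part of these in the values of Cbx1, Cbx3 and Cbx5 was not tested.

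In the other groups the values were smaller or uneven. In HP1a KO cells the log2 fold changes with Treg were 0.26 ± 0.141 for Cbx5, 0.10 ± 0.111 for Cbx1 and 0.28 ± 0.11 for Cbx3 (adjusted p = 0.286 for Cbx3, edgeR, 122 of 16133 genes called, 0.756%). Cbx3 libraries did not overlap there, as in 22.4% of genes. In HP1g WT cells they were -0.06 ± 0.272 for Cbx5, -0.03 ± 0.138 for Cbx1 and -0.09 ± 0.13 for Cbx3, with 2 of 15903 genes called (0.0126%) and 13.5% of genes not overlapping. HP1g KO cells gave -0.58 ± 0.409 for Cbx5, 0.08 ± 0.192 for Cbx1 and -0.18 ± 0.133 for Cbx3. Of 16991 genes 0 were called there with edgeR (0%), 1294 had an unadjusted p under 0.05 and DESeq2 called 310. Cbx3 libraries, 63.9 to 74.7 CPM without and 59.4 to 61.0 CPM with Treg, did not overlap, as in 24.4% of genes. Myeloid markers in HP1a KO cells summed to 13.0 to 183 CPM without and 224 to 601 CPM with Treg, and Treg markers in HP1g KO cells to 448 to 584 and 723 to 1404 CPM. Their part was not tested.

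The Treg effect was not shown to differ between genotypes or between lines. The interaction of genotype and Treg in the HP1a line was -0.52 ± 0.273 for Cbx5 and -0.52 ± 0.256 for Cbx1 on the log2 scale (adjusted p = 0.58 and 0.547, edgeR, 25 of 17205 genes called, 0.145%), with 95% intervals of -1.12 to 0.08 and -1.08 to 0.04. In the HP1g line it was -0.55 ± 0.537 for Cbx5 (adjusted p = 1.0, edgeR). Of 17833 genes 0 were called (0%), 667 had an unadjusted p under 0.05 and DESeq2 called 15. Between WT cells the effect in the HP1g line minus that in the HP1a line was -0.83 ± 0.378 for Cbx5, -0.65 ± 0.275 for Cbx1 and -0.51 ± 0.242 for Cbx3. None passed (adjusted p = 0.315, 0.281 and 0.337, edgeR), while 301 of 17127 genes did (1.76%).

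Cbx3 and Cbx5 each share a start region with a gene on the opposite strand. The canonical start of Cbx5 lies 394 bases from that of Hnrnpa1 and the start of Cbx3 967 bases from that of Hnrnpa2b1, which encode RNA-binding proteins of splicing, and each pair of gene models overlaps. The library kit does not mark the strand, so that reads from the overlaps cannot be told apart. Hnrnpa2b1 was 1030 to 2481 CPM over all libraries. It had log2 fold changes of -0.15, 0.02 and -0.01 in HP1g KO against WT for naive cells, Tconv and Tconv with Treg, beside -0.95, -0.43 and -0.53 for Cbx3. Hnrnpa1 had -0.08 and -0.06 in HP1a naive cells and Tconv, beside -1.03 and -0.89 for Cbx5. In Tconv with Treg it was -0.63 ± 0.187 (216 ± 43.4 CPM in WT and 142 ± 10.6 CPM in KO, adjusted p = 0.245, edgeR). With activation, Hnrnpa1 fell in HP1a WT (by 0.40, adjusted p = 0.0251, edgeR) and HP1a KO cells (by 0.37, adjusted p = 0.0251), where Cbx5 had values of 0.35 and 0.50.

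Few genes of any kind passed the edgeR test between KO and WT. It called 0% to 0.123% of all genes in the 6 comparisons, and 1.87% to 12.1% had an unadjusted p under 0.05. DESeq2 called more, with 18, 266 and 937 genes in HP1a naive cells, Tconv and Tconv with Treg. In the HP1g line it called 49, 387 and 819. Counts of 0 with edgeR in the lists that follow are at the edgeR background, and DESeq2 counts are to be read beside the DESeq2 totals. Of the H3K9 methyltransferases Suv39h1, Suv39h2, Setdb1, Setdb2, Ehmt1 and Ehmt2, 0 of 6 were called in each of the 6 comparisons with edgeR, and 0 with DESeq2. With edgeR an unadjusted p under 0.05 was found for Setdb1 in HP1a Tconv (log2 fold change 0.28 ± 0.095, adjusted p = 0.549) and for Setdb2 in HP1g Tconv with Treg (-0.52 ± 0.163, adjusted p = 0.296). In HP1a naive cells the fold changes of all 6 were 0.02 to 0.06 on the log2 scale (median 0.0346, against -0.0011 over all genes). Trim28, the corepressor that recruits SETDB1 and binds HP1, was -0.14 ± 0.141, 0.16 ± 0.0756 and -0.02 ± 0.155 in HP1a naive cells, Tconv and Tconv with Treg, and 0.20 ± 0.147, 0.06 ± 0.0996 and 0.09 ± 0.109 in the HP1g line. None of these 6 values passed. Of 22 HP1 partners, 7 H3K9 demethylases and 5 Polycomb chromobox genes, which share the chromodomain but bind another mark, 0 were called in each KO comparison with edgeR, where 6 of the 7 demethylases passed the count filter in HP1g naive cells and all genes elsewhere. DESeq2 called 1 Polycomb gene, in HP1a Tconv with Treg, and 0 otherwise. Unadjusted p-values under 0.05 numbered at most 1 of 22, 1 of 7 and 2 of 5 in a comparison. The Polycomb members with the smallest p-values there were Cbx6 (-0.61 ± 0.16, adjusted p = 0.193, edgeR) and Cbx7 (0.51 ± 0.154, adjusted p = 0.251), both in HP1a Tconv with Treg.

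With activation, genes of these lists passed the test in both directions. In HP1a WT cells 3 of 22 HP1 partners were called higher and 12 lower, where 45.7% of all genes were called, with a median log2 fold change of -0.33 against -0.04 over all genes. In HP1a KO cells it was 3 higher and 10 lower (40.6% of all genes called), in HP1g WT 3 and 5 (31.4%), and in HP1g KO 3 and 6 (41.1%). Of the 6 H3K9 methyltransferases 2 were called higher and 2 lower in HP1a WT, 1 and 2 in HP1a KO, 0 and 1 in HP1g WT, and 1 and 2 in HP1g KO. The 7 H3K9 demethylases gave 1 higher and 2 lower in HP1a WT, HP1a KO and HP1g KO, and 1 and 0 in HP1g WT. Chaf1a, a subunit of the chromatin assembly factor that carries HP1 to replicating DNA, rose by 2.14 in HP1a WT (95% interval 1.69 to 2.59, adjusted p = 6.01e-05, edgeR), and Incenp, a subunit of the chromosomal passenger complex of mitosis, by 1.57. Suv39h1 fell by 0.59 in HP1a WT (adjusted p = 0.00249, edgeR), by 0.52 in HP1a KO and by 0.57 in HP1g WT cells (adjusted p = 0.0241). Ehmt2 rose by 0.56 in HP1a WT, by 0.60 in HP1a KO and by 0.41 in HP1g KO cells (adjusted p = 0.0059, edgeR). Of the 5 Polycomb chromobox genes 1 was called higher and 2 lower in HP1a WT and in HP1g KO, 0 and 2 in HP1a KO, and 0 and 1 in HP1g WT. Cbx6 rose by 0.36 in HP1a WT (adjusted p = 0.0452, edgeR) and by 0.86 in HP1g KO cells (adjusted p = 0.00106). Cbx2 fell by 1.18 in HP1a WT (adjusted p = 0.00794, edgeR), by 0.998 in HP1a KO and by 0.677 in HP1g KO cells. The H3K9 demethylase Kdm3a, which removes the mark, fell by 0.98 in HP1a WT cells (adjusted p = 0.000162, edgeR). With Treg, Cbx6 rose by 0.78 in HP1a WT cells (adjusted p = 0.0146, edgeR), the only one of these lists' genes called in any of the 4 Treg comparisons with edgeR. DESeq2 called 3 of the 22 partners there in HP1a WT, among 2529 genes it called in all, where edgeR tested 15627.

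The pattern of each paralog over the 18 WT libraries was compared with that of 9251 genes by the root mean square (RMS) difference of centred log2 CPM. Cbx1 was nearest to Hsbp1 (RMS 0.112), Bbip1 (0.121), Thoc7 (0.132), Rnf7 (0.141) and Pfdn5 (0.143). Cbx3 was nearest to Znrd2 (0.137), Smim8 (0.146), Eef1akmt1 (0.154), Atp5g2 (0.155) and Rpl28 (0.158), and Cbx5 to Zfp120 (0.203), Trim30d (0.242), Inpp1 (0.243), Uevld (0.247) and Cbx6 (0.25). The median over all genes was 0.549, 0.57 and 0.601 for the 3 paralogs. Cbx1 and Cbx3 were closer to each other (0.202) than either was to Cbx5 (0.461 and 0.471). The libraries share their depth, line and the replicates that stood apart, and the likeness is a description. Ranked by the 6 WT group means, 1 of the 5 genes remained among the nearest 5 for Cbx1 and Cbx5, and 2 for Cbx3.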

How the data were processed

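RNA-seq was done on splenic CD4+ T cells in 12 groups of 3 libraries. Libraries were made from 10 pg of RNA with a SMART-Seq kit that does not mark the strand. The deposited values were estimated counts per gene, which the authors had made by aligning reads to GRCm39 with STAR and quantifying them per gene with Salmon, using Ensembl annotation. These counts were rounded here. Chromatin accessibility data of the series were not analysed here. HP1g KO Tconv with Treg replicate 3, excluded by the authors for its GC content, exonic share and 5′ to 3′ bias, was left out.

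Groups were compared in R 4.3.3 with edgeR 4.0.16 (quasi-likelihood test, robust dispersions, TMM scaling, filterByExpr), fitting only the groups compared. Interactions were fitted over 4 groups. Benjamini-Hochberg adjustment covered every gene tested. Calls were made where the adjusted p was below 0.05, with no fold threshold. Intervals are 95% and two-sided. Alternatives were DESeq2 1.42.0, RLE size factors, no filter, a log2 fold threshold of 1, all libraries of the line in 1 fit, a replicate block, inclusion of the left-out library, and removal of each library in turn. The test was checked on simulated counts with a single fixed spread for all genes and no outlying library. That check does not extend to groups as uneven as some here.

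Replicate numbers were taken to pair libraries where every pair of equal number had deviations from the group means correlated above 0.1, which held for HP1a KO and WT naive cells (r 0.287 to 0.654) and HP1g KO and WT Tconv (r 0.112 to 0.431). The labels do not say what the numbers mark. The 3 paralogs and the gene lists were chosen with earlier results of these data known. Of H3K9 methyltransferases all were examined, of other lists the 2 genes with the smallest p in a comparison were named, and Mki67, Ccr7, Trim28 and Cbx6 were also chosen after their values were seen where they fell outside that rule. Some genes of these lists are not reported here by name. Genes of like pattern were the 5 with the smallest RMS difference among genes whose mean over the WT libraries was 5 CPM or more, leaving out predicted genes and pseudogenes. Sequences, gene models and exon lengths are from the GENCODE annotation of GRCm39, in another release than the Ensembl annotation behind the counts. The lowest count of a paralog in a library was 398, and depth limits precision by counting error only.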

Additional observations from a re-analysis of the deposited data

Results flagged for a closer look

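The library that the study had excluded, HP1g KO Tconv with Treg replicate 3, had Cbx5 at 52.26 CPM (751 counts). This was above the HP1g WT libraries of its condition, which had 19.9 to 37.5 CPM, and above the 2 HP1g KO libraries that were kept, at 27.6 and 29.2 CPM. In the same library Cbx3 was at 26.7 CPM and Cbx1 at 2.23 CPM, below the lowest of the other 35 libraries for both (59.4 and 31.6 CPM). No group had enough libraries for a test of single outlying samples.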

How the results depend on the processing

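RLE size factors left every call of the 3 paralogs as it was. Adjusted p-values near the threshold moved with other settings. Of the 3 paralogs, 0 were called in HP1a KO against WT naive cells, and 1 with DESeq2 or with the replicate block. In HP1a Tconv 1 was called, and 0 with all libraries of the line, with the fold threshold or without any 1 library (0 to 0). In HP1a Tconv with Treg 0 were called, 1 with DESeq2 or no filter and 2 with all libraries of the line. In HP1g naive cells 0 were called, and 0 to 1 without 1 library (1 without HP1g WT naive replicate 2). Between Tconv and naive HP1a KO cells 1 was called, 0 with no filter, all libraries of the line, the replicate block or the fold threshold, and 0 to 1 without 1 library. In HP1g KO 1 was called, 0 with no filter or the replicate block, and 0 to 1 without 1 library. In HP1g WT 0 were called, and 2 with all libraries of the line. For Treg in HP1a WT 0 were called, 1 with DESeq2, 3 with all libraries of the line, and 0 to 1 without 1 library (1 without HP1a WT Tconv with Treg replicate 2).

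The replicate numbers did not pair the libraries of Tconv against naive cells by the correlation used. The block gave adjusted p-values for Cbx5 of 0.0618 in HP1a KO, where 6 of 6 libraries correlated best with their own number, and 0.0991 in HP1g KO, where 3 of 6 did (edgeR). Besides these and HP1a naive cells the block changed no call of a paralog.

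Small differences that passed no test changed sign when 1 library was left out. For KO against WT the log2 fold change of Cbx1 ranged from -0.0934 to 0.0268 in HP1a Tconv and from -0.421 to 0.0321 in HP1g naive cells, that of Cbx3 from -0.152 to 0.156 in HP1a Tconv with Treg, and that of Cbx5 from -0.179 to 0.276 in HP1g Tconv with Treg. For Tconv against naive cells Cbx1 ranged from -0.0416 to 0.101 in HP1a KO and from -0.222 to 0.0143 in HP1g KO, and Cbx3 from -0.0864 to 0.00835 and from -0.115 to 0.0396. For Treg, Cbx1 ranged from -0.131 to 0.114, Cbx3 from -0.225 to 0.00867 and Cbx5 from -0.326 to 0.151 in HP1g WT, and Cbx1 from -0.067 to 0.161 in HP1g KO. The interaction with activation ranged from -0.00745 to 0.154 for Cbx3 in the HP1a line. The interaction with Treg ranged from -0.275 to 0.0409 for Cbx3 in the HP1a line, and from -0.0648 to 0.188 for Cbx1 and from -0.219 to 0.0228 for Cbx3 in the HP1g line. With the left-out library included, Cbx1 reversed to -0.206 for HP1g KO against WT with Treg, to -0.485 for Treg in HP1g KO and to -0.465 for the interaction with Treg.

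All libraries of a line in 1 fit share 1 estimate of spread. The cause of the other differences between settings was not tested. With 2 or 3 libraries per group, and 398 to 9576 counts per paralog, changes smaller than the intervals given could not be seen. Cbx3 counts also depend on how shared reads were divided.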
